A study of Mus musculus with 6 samples.

Results

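Messenger RNA of 9 mouse genes that limit or report signalling by the transcription factor NF-kappaB was compared between activated CD8+ T cells given vehicle and cells given blebbistatin. The genes were picked by symbol as 3 genes of the inhibitor of apoptosis (IAP) family, Birc2, Birc3 and Xiap, 4 genes of the NF-kappaB feedback circuit, Tnfaip3, Tnip1, Tnip3 and Traf1, and the surface protein genes Cd83 and Icam1. They are 9 of the 47729 genes listed in each library, each symbol matched 1 gene, and all 9 reached the mean of 1 TPM (a transcript level corrected for transcript length and library size) over the 6 libraries that was required for testing. Both groups were cultured cells from mouse spleen, with 3 libraries of cells that received the vehicle and 3 of cells that received 2 µM blebbistatin, an inhibitor of the myosin II motor, for 24 h. The labels give no strain, age or genotype of the mice, do not name the vehicle and do not describe how the cells were activated. They also do not say that replicates came from separate mice or cultures, so that the tests measure only the spread between these libraries, which may be technical.

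NF-kappaB proteins are held in the cytoplasm by IkappaB proteins until a kinase complex, switched on by ubiquitin chains at receptors of the TNF family or at the T cell receptor, releases them. BIRC2 and BIRC3 are ubiquitin ligases that work with TRAF proteins at those receptors, and XIAP binds and blocks caspases, the proteases of cell death. TNFAIP3 (also called A20) edits and binds ubiquitin chains to end the signal, with TNIP1 and TNIP3 as partners, and TRAF1 is an adaptor of TNF receptor family proteins. In T cells many of these genes are themselves induced by NF-kappaB, as are CD83, a marker of activated lymphocytes and mature dendritic cells, and ICAM1, the ligand of the integrin LFA-1.

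Cd83, Tnip3 and Birc3 were higher with blebbistatin and no member was lower. Of the 9 genes 3 passed limma with Benjamini-Hochberg adjustment at 0.05 over 13372 tested genes, all 3 upward. Among all tested genes 1.40% passed upward and 0.426% downward. For 5 members, the 3 that passed and Birc2 and Traf1, all blebbistatin libraries lay above all vehicle libraries, which held for 18.0% of all tested genes, and 0 members lay wholly below, which held for 13.0%. The median log2 fold change, on the scale of log2(TPM + 1), was 0.33 over the 9 genes and 0.03 over all tested genes. On that scale the change of a gene of low abundance appears smaller than it is.

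**Figure D1:**
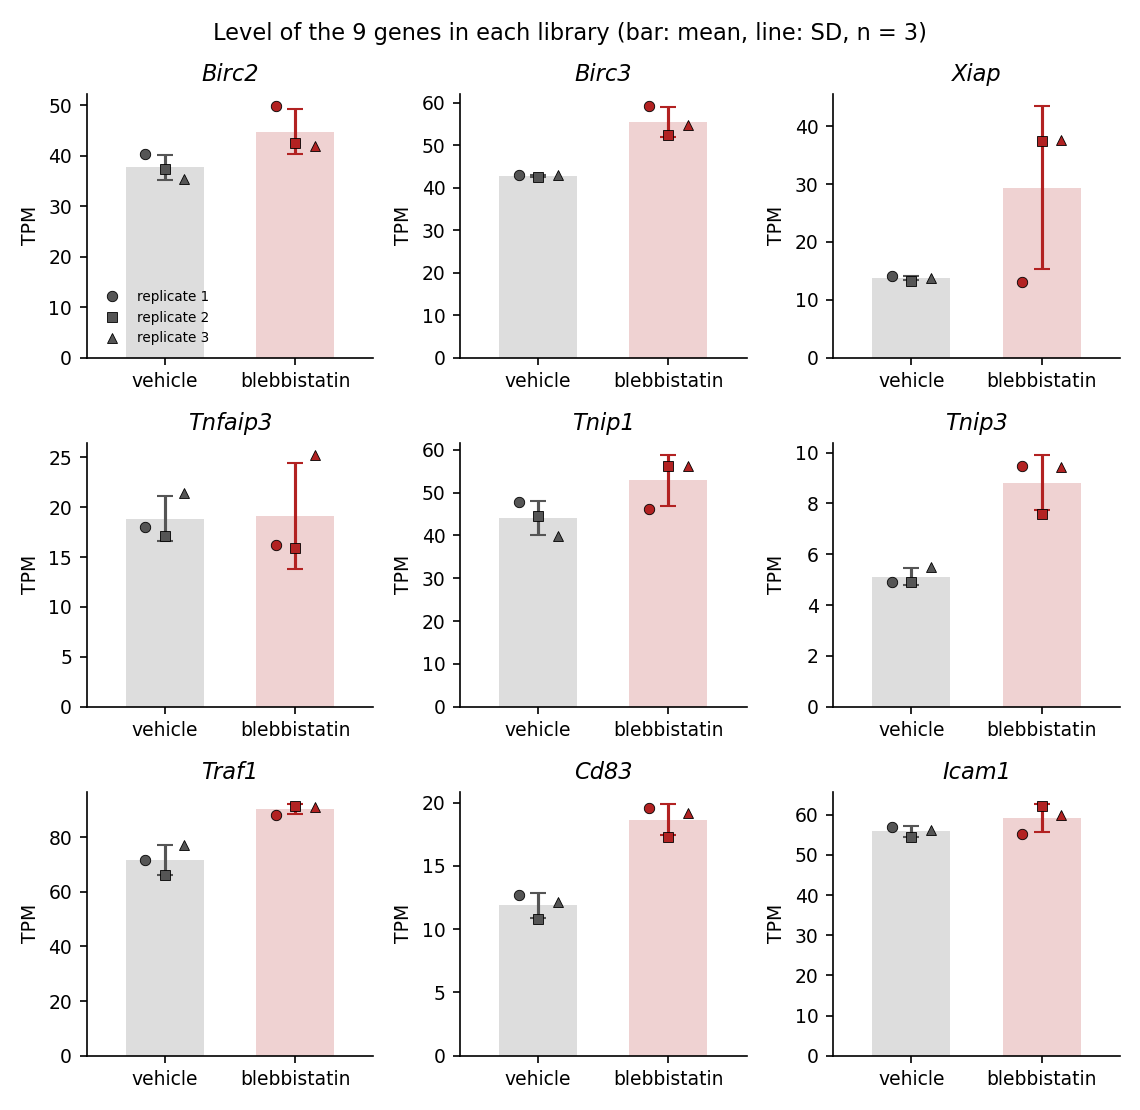
Level of each of the 9 genes in TPM (y axis, from 0) in the vehicle and blebbistatin groups, with bars for the mean, lines for the SD over 3 libraries and 1 point shape per replicate number. Birc3, Tnip3, Traf1 and Cd83 have all blebbistatin points above all vehicle points, as does Birc2, while Xiap is split within the blebbistatin group, with 13.1 TPM in blebbistatin 1 and 37.4 and 37.6 TPM in blebbistatin 2 and 3.

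The libraries had similar depth. The deposited values imply 18500000 to 19900000 sequenced fragments per library. The 7 markers of CD8 T cells were all present, as the label of the cells asks, with a summed level of 3986 to 4035 TPM in vehicle and 3792 to 3953 TPM in blebbistatin libraries. Thy1, one of the 7, passed downward. Of 4 markers of CD4 and regulatory T cells, Cd4 averaged 0.104 TPM with vehicle and 0.174 TPM with blebbistatin. Of the same 4, Foxp3 (1.48 and 1.23 TPM) and Zbtb7b (13.7 and 14.8 TPM) reached a mean of 1 TPM. The count of changed genes depended strongly on single libraries, with 244 genes in all, between 7 and 13 when 1 vehicle library was left out, and 120, 1090 and 3 when blebbistatin 1, 2 or 3 was left out. Of the 9 members 0 passed without any 1 vehicle library or without blebbistatin 3, with limma in each case, while 7 of the 9, and 3065 of all 13372 tested genes, had an unadjusted p under 0.05 with all libraries. Without blebbistatin 1 only Xiap passed, and without blebbistatin 2 the same 3 as with all libraries.

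Among the IAP genes, Birc3 rose, Birc2 did not pass, and Xiap differed within the drug group. Birc3 stood at 42.99, 42.58 and 42.99 TPM in vehicle 1, 2 and 3 and at 59.2, 52.4 and 54.9 TPM in blebbistatin 1, 2 and 3. Its vehicle values were almost identical and every blebbistatin value was higher, by 1.29-fold on average (log2 fold change 0.36, SE 0.06, limma adjusted p = 0.045). That call is close to the threshold. The adjusted p lay between 0.021 and 0.142 over the fits with all libraries and other settings. It was 0.169, 0.160 and 0.156 when vehicle 1, 2 or 3 was left out, and 0.060, 0.023 and 0.164 when blebbistatin 1, 2 or 3 was.

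Birc2 lies next to Birc3 on chromosome 9 and encodes the closest relative of its protein. Birc2 stood at 40.3, 37.4 and 35.4 TPM with vehicle and at 49.8, 42.6 and 41.9 TPM with blebbistatin. The groups did not overlap, yet the distance between blebbistatin 3 and vehicle 1 was small, and the gene did not pass (log2 fold change 0.24, 95% interval 0.03 to 0.45, limma adjusted p = 0.18). The ratio of Birc3 to Birc2 within a library does not depend on how libraries are scaled. It was 1.07, 1.14 and 1.21 with vehicle and 1.19, 1.23 and 1.31 with blebbistatin, so the groups overlapped (exact permutation test, two-sided, p = 0.2, where 3 against 3 libraries allow no p below 0.1). With that limit the test cannot decide whether Birc3 rose more than Birc2 in TPM. Of the distinct stretches of 75 bases in the annotated transcripts, 40 of 4573 for Birc2 and 40 of 5079 for Birc3 were identical between the genes, so few reads could fit both.

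The order of Birc2 and Birc3 depends on the measure. In TPM, Birc3 was above Birc2 in all 6 libraries. The deposited coverage, the mean read depth over a gene, gives the opposite order, with 63.2, 59.6 and 58.99 for Birc2 and 18.1, 17.5 and 18.8 for Birc3 in the vehicle libraries. Converted to fragments, Birc2 rested on 901 to 1267 and Birc3 on 292 to 393 per library. The ratio of coverage to FPKM places the mean length of the transcripts assigned to Birc3 at 776 bases in the vehicle libraries, against 2700 bases for Birc2. The annotation lists Birc3 transcripts of 2667 and 2909 bases and 5 of 355 to 795 bases. Most of the TPM of Birc3 was thus credited to the short transcript models in both groups, and its mean assigned length was 15.5% ± 0.324 of the exon total with vehicle and 14.6% ± 0.134 with blebbistatin (SD, n = 3 in each). Coverage of Birc3 scaled to 1000000 implied fragments was also higher in every blebbistatin library, at 1.21, 1.11 and 1.14 against 0.977, 0.915 and 0.946. The scaled coverage of Birc2 was likewise higher in every blebbistatin library. By this measure the mean rose 1.217-fold for Birc3 and 1.221-fold for Birc2, so Birc3 did not rise more than Birc2 in coverage. The contrast between the 2 genes in TPM was thus not seen in coverage.

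**Figure D2:**
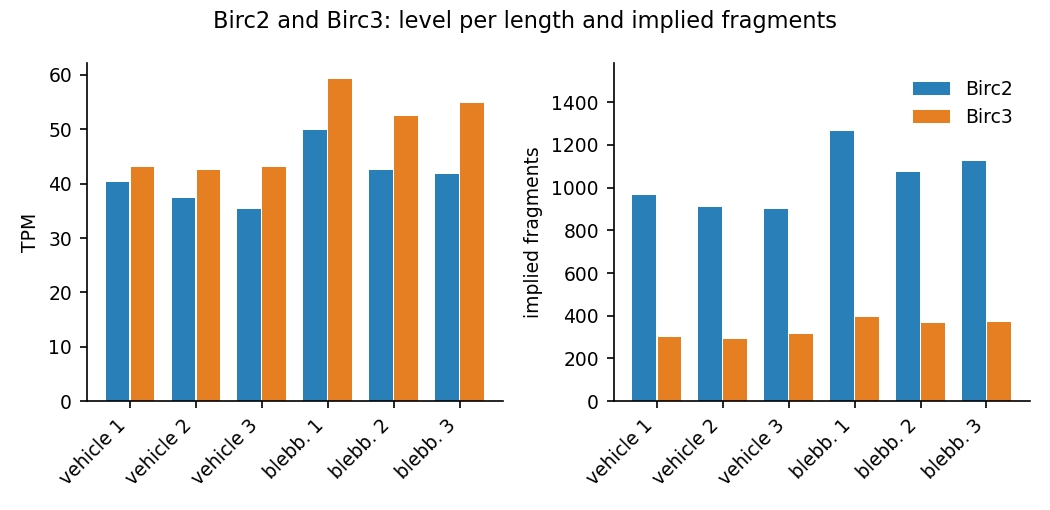
Birc2 (blue) and Birc3 (orange) in each of the 6 libraries, as TPM (left) and as the number of fragments implied by the deposited coverage (right). Birc3 is the higher bar in TPM in every library and the lower bar in fragments, with 292 to 393 against 901 to 1267.

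Xiap, the caspase inhibitor of the family, was the most uneven member. It stood at 14.1, 13.3 and 13.8 TPM in vehicle 1, 2 and 3, at 13.1 TPM in blebbistatin 1, and at 37.4 and 37.6 TPM in blebbistatin 2 and 3. Blebbistatin 1 thus lay just below the vehicle libraries while blebbistatin 2 and 3 lay at least 2.65 times above all remaining libraries. The log2 fold change of 0.90 had a 95% interval of 0.04 to 1.76 and did not pass (limma adjusted p = 0.20). Without blebbistatin 1 it was 1.39 (adjusted p = 0.0043 by limma), and over the fits without 1 of the other 5 libraries and those with all libraries it did not pass. Such a step between these libraries was rare, since 4 of the 13372 tested genes had both blebbistatin 2 and blebbistatin 3 at 2 times or more of the highest of the other 4 libraries. Besides Xiap these were Rac1, a small GTPase that drives actin assembly, Gnal, a G protein subunit, and the predicted gene Gm5914, which were looked up after the pattern of Xiap was seen.

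The step in Xiap was also present in the deposited coverage. Coverage scaled to 1000000 implied fragments was 1.08, 1.03 and 1.02 with vehicle, 1.00 in blebbistatin 1, and 3.26 and 3.50 in blebbistatin 2 and 3. In fragments these are 617 in blebbistatin 1 and 2040 and 2153 in blebbistatin 2 and 3. The mean length of the transcripts assigned to Xiap moved with it, from 53.5%, 54.5% and 51.9% of the exon total with vehicle and 54.7% in blebbistatin 1 to 61.0% and 65.6% in blebbistatin 2 and 3. Annotated transcripts of Xiap fall into long ones of 5407 to 6834 bases and short ones of 284 to 1817 bases. Whether the step came with the assignment of reads to these transcripts was not tested, as the tables hold genes and not transcripts.

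**Figure D3:**
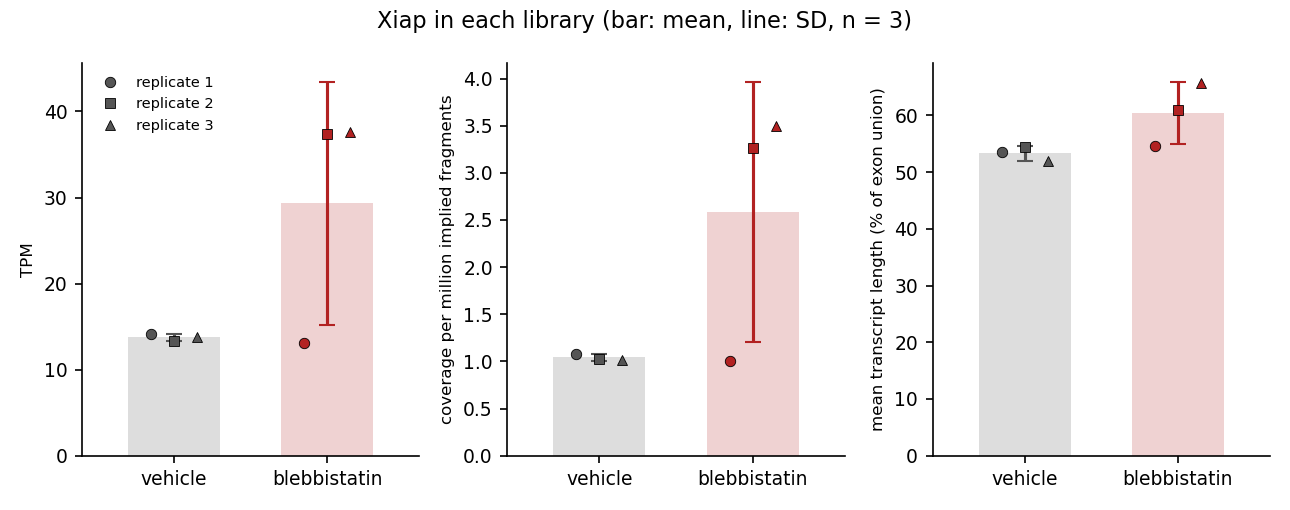
Xiap in each library as TPM (left), coverage scaled to 1000000 implied fragments (middle) and mean length of the assigned transcripts as a percent of the gene's exon total (right), with bars for the mean, lines for the SD over 3 libraries and 1 point shape per replicate number. Blebbistatin 1 sits with the vehicle libraries in all 3 panels, while blebbistatin 2 and 3 stand apart at 37.4 and 37.6 TPM.

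In the A20 circuit Tnip3 rose, while Tnfaip3 and Tnip1 did not pass. Tnip3, which binds A20 and is at low level in these cells, stood at 4.92, 4.91 and 5.51 TPM with vehicle and at 9.47, 7.57 and 9.42 TPM with blebbistatin. All blebbistatin values were above all vehicle values, and the mean was 1.73-fold higher (log2 fold change 0.68, SE 0.11, limma adjusted p = 0.043). The values rest on an implied 153 to 177 fragments in the vehicle and 259 to 301 in the blebbistatin libraries, where the counting error of the lowest is 8.09%. These numbers are approximate for Tnip3, since the gene begins at another position in the annotation used here than in the deposited tables. By limma the adjusted p became 0.163, 0.150 and 0.130 on leaving out vehicle 1, 2 or 3, and 0.081, 0.020 and 0.164 on leaving out blebbistatin 1, 2 or 3. It was 0.058 with quantile scaling, where Birc3 also did not pass, at 0.052.

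Tnfaip3, the A20 gene, stood at 17.99, 17.2 and 21.5 TPM with vehicle and at 16.2, 15.9 and 25.2 TPM with blebbistatin. The third library was the highest in both groups, the ranges overlapped, and the means of 18.9 ± 2.29 and 19.1 ± 5.31 TPM (SD, n = 3) were nearly the same. The log2 fold change was -0.01, with a 95% interval of -0.43 to 0.42 (limma adjusted p = 0.99), so that changes up to those limits cannot be told from none. It was above 0 in 3 of the fits that left out a library.

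Tnip1, the more abundant A20 partner, stood at 47.9, 44.5 and 39.96 TPM with vehicle and at 46.1, 56.3 and 56.3 TPM with blebbistatin. Blebbistatin 1 lay within the vehicle range and blebbistatin 2 and 3 above it (log2 fold change 0.25, 95% interval 0.01 to 0.50, limma adjusted p = 0.20). The ratio of Tnip3 to Tnip1 ran from 0.103 to 0.138 with vehicle and from 0.135 to 0.205 with blebbistatin. These ranges overlapped in vehicle 3 and blebbistatin 2 (exact permutation test, two-sided, p = 0.2). With 3 libraries in each group this test allows no p below 0.1, so it cannot decide whether the partners changed differently.

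The promoters of Tnip3 and Birc3, the 2 genes that rose and have an entry in the RefSeq table of promoters (GRCm38.p6), are given with those of Tnfaip3 and Tnip1, the companions of Tnip3. Each covers 250 bases before and 50 after an annotated start, is written 5′ to 3′ on the gene's own strand, and has the matches to the kappaB consensus, searched on both strands, in capitals. The consensus was taken in the strict form GGGRNNYYCC, where R is A or G, Y is C or T and N is any base. Looser forms of the site were not searched and are not marked. They lie at chr6:65590148-65590447 (Tnip3, plus strand), chr9:7873121-7873420 (Birc3, minus strand), chr10:19015361-19015660 (Tnfaip3, minus strand) and chr11:54962891-54963190 (Tnip1, minus strand).
Tnip3: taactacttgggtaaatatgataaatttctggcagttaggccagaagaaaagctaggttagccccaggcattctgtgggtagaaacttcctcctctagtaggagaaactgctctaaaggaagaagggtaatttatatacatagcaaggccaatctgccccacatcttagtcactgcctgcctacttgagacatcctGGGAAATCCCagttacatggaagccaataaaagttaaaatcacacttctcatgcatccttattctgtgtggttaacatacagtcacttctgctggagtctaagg
Birc3: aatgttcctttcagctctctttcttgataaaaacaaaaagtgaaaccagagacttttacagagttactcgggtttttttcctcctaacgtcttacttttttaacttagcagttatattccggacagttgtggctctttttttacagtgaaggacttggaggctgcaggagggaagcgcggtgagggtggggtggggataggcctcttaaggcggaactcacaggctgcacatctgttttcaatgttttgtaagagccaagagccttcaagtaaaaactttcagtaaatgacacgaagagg
Tnfaip3: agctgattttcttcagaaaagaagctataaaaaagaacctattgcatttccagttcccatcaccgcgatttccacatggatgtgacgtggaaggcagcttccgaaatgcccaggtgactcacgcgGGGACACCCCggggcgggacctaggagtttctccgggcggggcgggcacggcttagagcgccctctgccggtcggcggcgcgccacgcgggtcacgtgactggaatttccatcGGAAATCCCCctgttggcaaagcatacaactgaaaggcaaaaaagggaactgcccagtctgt
Tnip1: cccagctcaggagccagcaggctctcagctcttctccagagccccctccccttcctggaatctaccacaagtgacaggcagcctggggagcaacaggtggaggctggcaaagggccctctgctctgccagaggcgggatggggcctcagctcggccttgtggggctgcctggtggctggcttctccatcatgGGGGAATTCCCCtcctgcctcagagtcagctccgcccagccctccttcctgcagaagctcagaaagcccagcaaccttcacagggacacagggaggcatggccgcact

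Tnip3 had 1 match, Tnfaip3 2 and Tnip1 3 that overlap each other in a single run, while the Birc3 window held 0. Matches also occurred in 1 of the 3 promoters listed for Xiap and in none of those of Birc2, Traf1 and Icam1. In all, 4 of the 8 members with an entry had a match in at least 1 promoter, and 12.1% of the 8811 tested genes with an entry did. Of all 32851 promoters of this length 8.46% had one. A match is only a run of letters. A window without one may still hold sites of a looser form, and says nothing of sites elsewhere. Of the members that rose, Tnip3 had a match, Birc3 had none and Cd83 has no entry. Tnfaip3, Tnip1 and Xiap had a match and did not pass. Whether matches go with the change was not tested.

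Traf1, the receptor adaptor, was the most abundant member and missed the threshold. It stood at 71.5, 66.1 and 77.3 TPM with vehicle and at 88.1, 91.6 and 91.0 TPM with blebbistatin. All blebbistatin libraries were higher, by 1.26-fold on average (log2 fold change 0.33, 95% interval 0.17 to 0.49, limma adjusted p = 0.065). After a correction of each library for transcript length and GC content, which was added after the data were seen, Traf1 passed (adjusted p = 0.031) and so did Tnip1 (adjusted p = 0.048), both by limma. The ratio of Birc3 to Traf1 was 0.601, 0.644 and 0.556 with vehicle and 0.673, 0.572 and 0.603 with blebbistatin, and the groups overlapped (exact permutation test, two-sided, p = 0.7).

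Of the surface genes Cd83 rose and Icam1 stayed close to its vehicle level. Cd83 stood at 12.7, 10.8 and 12.1 TPM with vehicle and at 19.5, 17.3 and 19.2 TPM with blebbistatin. Every blebbistatin value was above every vehicle value, and the mean was 1.57-fold higher (log2 fold change 0.61, SE 0.09, limma adjusted p = 0.032). It had the smallest adjusted p of the members, and rested on an implied 241 to 442 fragments. The fragment numbers are approximate, since Cd83, like Tnip3, begins at another position in the annotation used here than in the deposited tables. Cd83 kept the call with quantile scaling, where Birc3 and Tnip3 lost it. With vehicle 1, 2 or 3 left out its limma adjusted p was 0.104, 0.120 and 0.122, and with blebbistatin 1, 2 or 3 left out it was 0.063, 0.021 and 0.142.

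Icam1 stood at 57.1, 54.5 and 56.2 TPM with vehicle and at 55.3, 62.2 and 59.9 TPM with blebbistatin. The groups overlapped and the 95% interval of the log2 fold change of 0.08 ran from -0.07 to 0.23 (limma adjusted p = 0.48). The predicted gene Gm47079 overlaps 11.3% of the exon total of Icam1 in the annotation used here. With a library kit that does not mark strand, its reads in that overlap cannot be told apart from those of Icam1. Whether the overlap reaches the Icam1 transcript measured here was not tested. The ratio of Cd83 to Icam1 was 0.223, 0.198 and 0.216 with vehicle and 0.353, 0.277 and 0.320 with blebbistatin. It was the only one of 8 ratios between members in which the groups did not overlap (exact permutation test, two-sided, p = 0.1, the smallest possible, and 0.46 after Benjamini-Hochberg adjustment over the 8). The other 4 ratios not given above, Birc3 to Xiap, Birc2 to Xiap, Tnfaip3 to Tnip1 and Traf1 to Tnfaip3, had exact permutation p of 0.4, 0.4, 0.4 and 0.3.

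**Figure D4:**
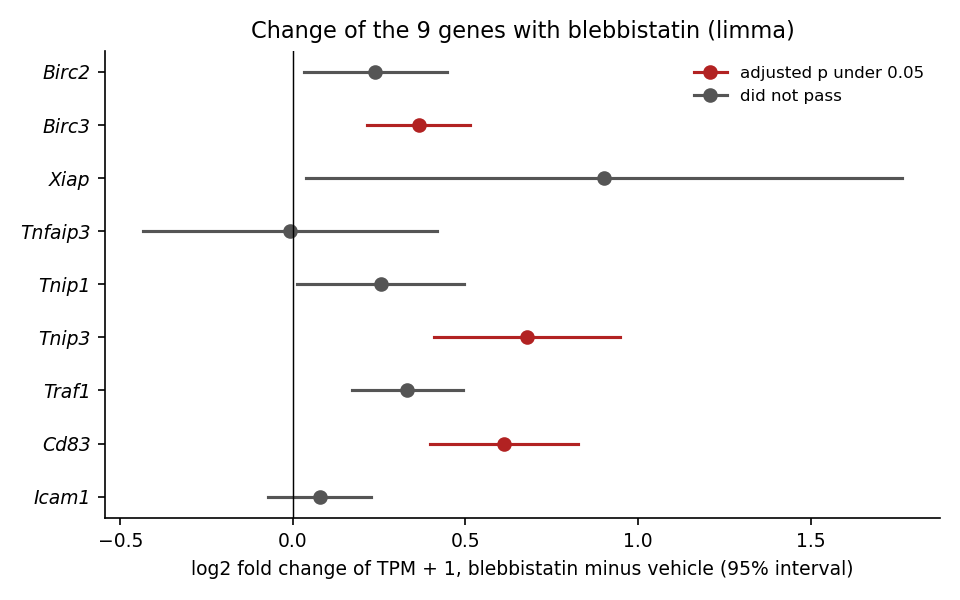
Log2 fold change of TPM + 1, blebbistatin minus vehicle (x axis), for each of the 9 genes, with points for the limma estimate and lines for its 95% interval. The 3 genes that passed (red) are Birc3 at 0.36, Tnip3 at 0.68 and Cd83 at 0.61, and Xiap has the widest interval, 0.04 to 1.76.

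Cd83 and Icam1 are also made by B cells, dendritic cells, macrophages and endothelial cells, so the markers of these cells are given beside them. Of 10 B cell markers 6 reached a mean of 1 TPM, with a summed level of 546 to 567 TPM in vehicle and 552 to 582 TPM in blebbistatin libraries, most of it Ighm. Of these H2-Eb1 and Igkc passed upward, and 5 of the 6 tested were above 0, with a median log2 fold change of 0.56. H2-Aa went from a mean of 6.69 to 13.2 TPM without overlap of the groups (limma adjusted p = 0.051), and Cd79b from 11.6 to 14.6 TPM. Cd79a averaged 0.402 TPM with vehicle and 1.216 TPM with blebbistatin, Ms4a1 0.147 and 0.230 TPM, and Pax5 0.037 and 0.054 TPM. Of 8 dendritic cell markers 3 reached 1 TPM and 0 passed (0 also at an unadjusted p under 0.05 by limma), with sums of 94.7 to 97.1 TPM and 45.1 to 102 TPM. Most of these sums was Batf3, which activated T cells also express, while Siglech was at 0 in every library. Of 7 macrophage and monocyte markers only Cd68 reached 1 TPM, with sums of 5.84 to 7.83 TPM and 10.4 to 10.8 TPM. C1qa was at 0 throughout. Of 4 endothelial markers only Pecam1 reached 1 TPM, with sums of 18.1 to 21.4 TPM and 21.1 to 27.7 TPM. Platelet markers moved most, with 4 of 6 tested passing upward and sums of 50.7 to 60.5 TPM against 114 to 132 TPM. The part of these cells in the values of Cd83, Tnip3 and Birc3 was not tested. In bulk RNA, more cells with a transcript and more transcript per cell cannot be told apart.

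The rest of the NF-kappaB pathway did not move in 1 direction. Of 11 genes of NF-kappaB subunits and IkappaB proteins 0 rose and Nfkbid, an atypical IkappaB protein, fell (27.1 ± 1.34 against 16.9 ± 1.59 TPM, log2 fold change -0.65, limma adjusted p = 0.025). That call was lost without any 1 vehicle library, without blebbistatin 3 and with no minimum level. The median of the 11 was -0.08, with 5 values above 0 and 6 below. In 3 of the 11 all blebbistatin libraries lay above all vehicle libraries, and in 1, Nfkbid, all lay below. Over all tested genes these shares were 18.0% and 13.0%, and 1.40% passed upward and 0.426% downward by limma. The 3 were Rel, the subunit of activated lymphocytes, Nfkb2, and Nfkbia, which restrains NF-kappaB. They did not pass (adjusted p = 0.12, 0.22 and 0.21 by limma). After the correction for length and GC content the median turned to 0.07, with 1 gene higher and 1 lower.

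Of 29 genes that carry the signal to NF-kappaB, from receptors and adaptors to kinases and ubiquitin enzymes, 1 rose and 0 fell. It was Tax1bp1, a ubiquitin-binding adaptor through which A20 acts, which went from 109 ± 2.71 to 141 ± 7.71 TPM (log2 fold change 0.36, SE 0.06, limma adjusted p = 0.037). The median of the 29 was 0.01. In 4 of them all blebbistatin libraries lay above all vehicle libraries (Tax1bp1, Cyld, Tab2 and Tab3) and in 6 all lay below (Tradd, Tab1, Rbck1, Sharpin, Tnfrsf1b and Ikbkb), and of these 10 genes only Tax1bp1 passed. Over all tested genes 18.0% lay wholly above and 13.0% wholly below, and 1.40% passed upward and 0.426% downward by limma. Without blebbistatin 2, 3 genes of this list passed upward and 2 downward, against 496 and 594 of all 13372 tested genes. Without any 1 vehicle library or blebbistatin 3 none of the list passed, where 3 to 13 of all tested genes did.

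Other genes that act with the IAPs did not pass. Of 10 tested genes of further IAP family members, IAP antagonists and caspases 0 rose and 0 fell by limma, with a median of 0.14. An unadjusted p under 0.05 was found for 3 of the 10, and for 3065 of all 13372 tested genes. By limma 1.40% of all tested genes passed upward and 0.426% downward. Without blebbistatin 2, 1 of the 10 passed upward, against 496 of all 13372 tested genes. Birc5, a mitotic protein better known as survivin, stood at 329 ± 10.2 TPM with vehicle and at 302 ± 1.80 TPM with blebbistatin (SD, n = 3). Diablo, the mitochondrial antagonist of IAPs, stood at 50.2 ± 5.03 and 44.0 ± 5.56 TPM. Birc7 and Naip1 were listed at 0 in every library.

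Among 28 tested further targets of NF-kappaB 2 rose and 0 fell, with 15 at an unadjusted p under 0.05 (3065 of all 13372 tested genes), 15 values above 0 and 13 below, and a median of 0.01. Bcl2a1b, a survival gene with near-identical copies whose reads may be shared, rose from 34.5 ± 0.744 to 51.2 ± 3.84 TPM (limma adjusted p = 0.023). Cd69, an early activation marker, rose from 91.2 ± 2.29 to 129 ± 16.5 TPM (limma adjusted p = 0.049). In 7 of the 28 all blebbistatin libraries lay above all vehicle libraries and in 7 all lay below, against 18.0% and 13.0% of all tested genes. The sign of the median changed with the scaling. With all libraries 1.40% of all tested genes passed upward and 0.426% downward by limma. Without any 1 vehicle library or blebbistatin 3, 0 of the 28 passed, where 3 to 13 of all tested genes did. Without blebbistatin 2, 2 of the 28 passed upward and 2 downward, against 496 and 594 of all 13372 tested genes, all by limma. Of 4 tested genes of the ICAM family and the beta2 integrins 0 rose and 0 fell by limma, with 0 at an unadjusted p under 0.05. The 2 at the highest level, Itgb2 and Itgal, which form LFA-1, the receptor of ICAM1, stood at 248 ± 2.78 and 246 ± 7.72 TPM and at 217 ± 5.09 and 222 ± 4.36 TPM.

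**Figure D5:**
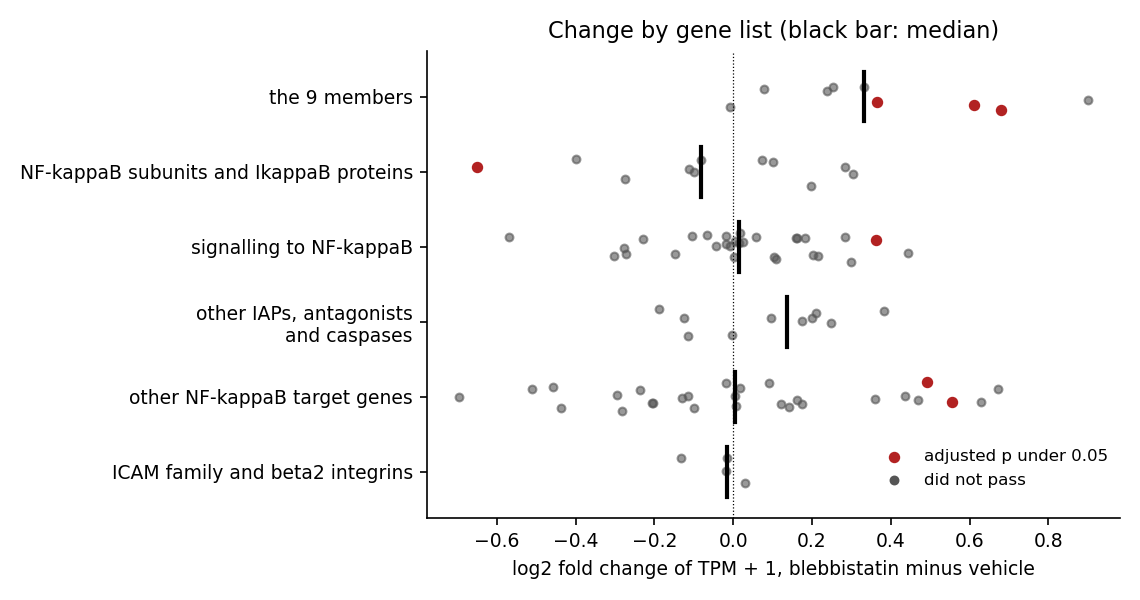
Log2 fold change of TPM + 1, blebbistatin minus vehicle (x axis), for each tested gene of the 9 members and of 5 lists of the pathway (rows), with red points for genes that passed and black bars for medians. The median of the members is 0.33, and those of the 5 lists lie between -0.08 and 0.14.

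By level with vehicle the order of the 9 genes was Traf1, Icam1, Tnip1, Birc3, Birc2, Tnfaip3, Xiap, Cd83 and Tnip3. The values of Tnip1 overlapped those of Birc3 and Birc2, and no other members overlapped in the vehicle libraries. With blebbistatin Birc3 (52.4 to 59.2 TPM), Icam1 (55.3 to 62.2 TPM) and Tnip1 (46.1 to 56.3 TPM) overlapped, Birc2 (41.9 to 49.8 TPM) reached into the range of Tnip1, and Xiap, Tnfaip3 and Cd83 overlapped one another.

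The 3 members that passed were compared with other genes across the 6 libraries by Pearson correlation of log2(TPM + 1), as a description. For Birc3 the most similar were Fyb (0.999), Tmem71 (0.998) and Kiz (0.998). For Tnip3 they were Ube2h (0.998), Glud1 (0.996) and Tnfrsf26 (0.996), and for Cd83 they were Ldhb (0.998), Ei24 (0.998) and Pde8a (0.998). With 6 libraries such values are common, and 392, 317 and 228 protein-coding genes were above 0.95 with Birc3, Tnip3 and Cd83.

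The genes lie at 9 places of GRCm38, all protein-coding, as the deposited tables list them. Birc2 (7818227 to 7837064, minus strand), Birc3 (7848699 to 7873186, minus strand) and Icam1 (21015960 to 21028797, plus strand) are on chromosome 9. Xiap is on chromosome X, 42059679 to 42109656, plus strand, and Tnfaip3 on chromosome 10, 19000910 to 19015657, minus strand. Tnip1 is on chromosome 11, 54910785 to 54962917, minus strand, and Tnip3 on chromosome 6, 65590398 to 65634040, plus strand. Traf1 is on chromosome 2, 34941750 to 34961772, minus strand, and Cd83 on chromosome 13, 43785107 to 43803130, plus strand.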

How the data were processed

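RNA was measured by sequencing in 3 vehicle and 3 blebbistatin libraries. The submitters' processing notes name HISAT2 2.1.0, StringTie 1.3.4 and DESeq2 1.22.2 and the build mm10, with no role or order. TPM and FPKM values were computed by the authors, and TPM sums to 1000000 in each library, per the deposited tables. The deposited coverage is an unnormalized signal, the mean read depth over a gene. No counts were used.

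The 9 members and all gene lists were chosen with earlier results of these data known. Testing took genes whose mean over the 6 libraries reached 1 TPM, and was done on log2(TPM + 1) with limma 3.58.1 in R 4.3.3 (trend, Benjamini-Hochberg over all genes). The script was tested on simulated data. Lists were described by counts and medians, with the passing members named or else the 2 at the highest level; further names were chosen after their values were seen. Some genes of the lists are not reported here. Replicate numbers come from the labels.

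Fragments were implied from coverage, with 300 aligned bases taken as 1 fragment, and mean transcript length from the ratio of coverage to FPKM, relative to its highest value in a library, which 98.99% to 99.5% of genes with 1 annotated transcript reached. Exons and transcript lengths came from GENCODE (GRCm38), where 99.1% of identifiers matched; such values are approximate. Ratios were tested with SciPy 1.17.1 and figures drawn with matplotlib 3.10.9 in Python 3.11.15. Alternatives covered the pseudocount, minimum level, FPKM, scaling, limma options, a replicate block and leaving out each library; a length and GC correction (loess, span 0.3) and a fit on protein-coding genes alone came after the data had been seen.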

Additional observations from a re-analysis of the deposited data

How the results depend on the processing

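The 3 calls among the 9 genes are marginal. All 8 members above 0 kept that direction in all 18 alternatives, but the calls did not hold in each. Of the alternatives, Birc3 passed in 9, Tnip3 in 10 and Cd83 in 11. With no minimum level 0 members and 49 genes passed, with more genes tested. With quantile scaling 1 member, Cd83, passed, and without the trend 160 genes did. The correction for transcript length and GC content gave 5 members and 446 genes, 290 higher and 156 lower in place of 187 and 57, so the share of rises was smaller. Without 1 library, 0 to 3 members and 3 to 1090 genes passed; in these fits the log2 fold change of Tnfaip3 ran from -0.22 to 0.10, being 0.08, 0.09 and 0.10 without vehicle 3, blebbistatin 1 and blebbistatin 2. The log2 ratio of Birc3 to Traf1, blebbistatin minus vehicle, ran from -0.0291 to 0.0877, and was -0.0178 without vehicle 3. With the replicate number as a block in the fit, 0 genes and 0 members passed by limma, with 2628 genes and 6 members at an unadjusted p under 0.05. Taken over all tested genes, same-numbered libraries did not deviate together (correlations 0.0107, -0.0373 and -0.034). A pairing that touches few genes would not show in this check, and the labels do not say what the numbers mark. For each loss the cause was not tested. Genes near 1 TPM rest on few fragments, and of the members Tnip3 is nearest to that limit.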
